A study of Homo sapiens with 11 samples.

Results

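The transcriptome of CEM/BTZ7 under bortezomib was compared with that of its untreated parent, CEM/WT. Of the 11 expression profiles of the series, 5 entered the comparison: the 3 CEM/BTZ7 samples and the 2 CEM/WT samples, chosen by their labels alone, with every measured gene in view. CCRF-CEM is an established line of human T lymphoblasts from acute lymphoblastic leukemia. CEM/BTZ7 is its subline selected for growth at 7 nM bortezomib (BTZ). It was kept in drug per the labels and given fresh medium with 7 nM BTZ 24 h before RNA isolation, whereas the study's methods describe a drug-free interval before that exposure. CEM/WT received no drug. The groups therefore differ in subline and in drug exposure at once, and the parts of these in any difference below cannot be told apart. RNA was hybridised to Agilent whole-genome oligonucleotide arrays. CEM/WT replicate 1 and CEM/BTZ7 replicate 3 were labelled with Cy3 and the other 3 samples with Cy5, so dye was a term in the fit. Whether the replicates were grown as separate cultures is not stated. The p-values thus reflect the scatter of these arrays, part or all of which could be technical. CEM/WT serves as the reference of other comparisons in the series too.

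BTZ is a boronate that reversibly blocks the chymotrypsin-like site of the proteasome, the β5 subunit encoded by PSMB5. The proteasome joins a 20S barrel of stacked α and β rings, where proteins are cut, to 19S caps, whose ATPases unfold ubiquitin-tagged proteins and feed them in. Cells in which it is blocked are known to raise the genes of its own subunits, of heat shock chaperones and of oxidative and metal stress, and the drug is used against plasma cell and mantle cell malignancies.

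After quantile normalization, 17111 genes were tested with limma, each by 1 probe. At an adjusted p under 0.05, 354 genes (2.07%) were called, of which 213 (1.24%) were higher and 141 (0.824%) lower in CEM/BTZ7. All called genes differed by at least 1.37 on the log2 scale, and in none of the 354 did the groups overlap. Over all genes, 17.1% had every CEM/BTZ7 value above both CEM/WT values and 16.5% had every value below. The call itself favours genes without overlap. The median difference was 2.53 for those called higher and -2.54 for those called lower, against -0.04 over all genes. A fold of 4 or more was reached by 155 of the higher and 103 of the lower genes. With 2 residual degrees of freedom the test had little power. An unadjusted limma p under 0.05 was found in 2947 genes (17.2%), the share to set beside counts at that level in the lists below. An exact permutation test of 3 samples against 2 cannot go below 0.1. Without CEM/WT replicate 1, CEM/WT replicate 2 or CEM/BTZ7 replicate 3, limma called 0 genes at 1 residual degree of freedom (2192, 1957 and 2203 genes had an unadjusted p under 0.05), while 345 of 346, 346 of 346 and 354 of 354 of the called genes still measured kept their direction. A call lost with so few samples says nothing of the size of a difference. A kept direction says little either, since the groups overlapped in no called gene, which nearly fixed the sign beforehand. Without CEM/BTZ7 replicate 1 or replicate 2, 185 and 100 genes were called. The plot of all genes shows where the called genes lie.

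**Figure D1:**
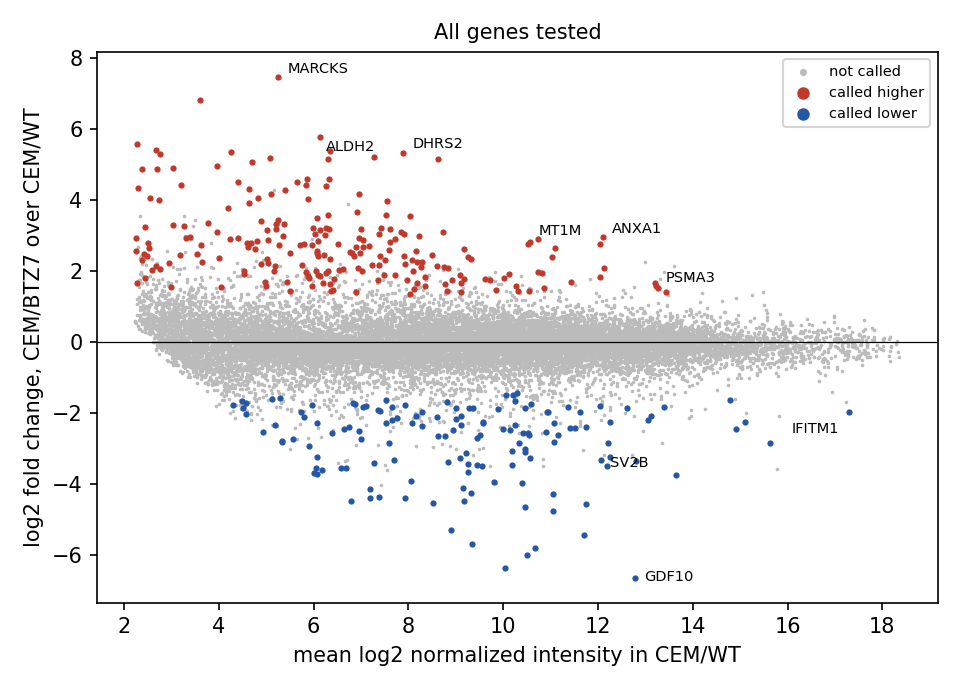
Each point is 1 of the genes tested, by its mean log2 normalized intensity in CEM/WT (n = 2) and its log2 fold change in CEM/BTZ7 (n = 3) over CEM/WT, with 213 genes called higher in red and 141 called lower in blue. MARCKS stands at 7.49 and GDF10 at -6.63, and transcripts that identify sex are not drawn.

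The T lymphoblast identity given in the labels was checked first. All 13 T lymphoblast markers, CD3D, CD3E, CD3G, CD247, CD4, CD5, CD7, CD2, CD1A, RAG1, DNTT, PTCRA and LCK, were above background in all 5 samples. The log2 of their summed intensity was 16.88 to 17.22 in CEM/WT and 17.16 to 17.26 in CEM/BTZ7. Of these 13, CD1A and DNTT were called higher. None of 6 B cell, 10 myeloid or 12 erythroid and megakaryocyte markers tested was called by limma in either direction (1, 1 and 0 at an unadjusted p under 0.05). The summed levels of the markers on the array (9 for B cells) overlapped between groups (14.25 to 14.81 against 14.09 to 14.47, 11.24 to 11.42 against 9.73 to 11.91, and 12.23 to 12.48 against 11.95 to 12.79, CEM/WT first). The 12 epithelial markers on the array summed to 12.13 to 12.29 in CEM/WT and 12.49 to 12.97 in CEM/BTZ7. EPCAM was the only 1 of 10 tested that was called. The median of the 10 was -0.32, with 4 positive. Of them 1 lay above both CEM/WT samples and 4 below both, against 17.1% and 16.5% of all genes. A part of other cell types in the differences was not tested. Background here is a low bar, since 81.6% to 89% of probes passed it in each sample. Also above it in all 5 samples were 6 of 9 B cell and 8 of 10 myeloid markers on the array. So were 11 of 12 erythroid and megakaryocyte and 9 of 12 epithelial markers.

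The largest increase was in MARCKS, a substrate of protein kinase C that links the plasma membrane to actin. Its log2 intensity was 5.26 in both CEM/WT samples and 13.08, 12.83 and 12.47 in CEM/BTZ7. The groups lay far apart, with a log2 fold change of 7.49 ± 0.22 (SE, limma adjusted p = 0.0116), or 179.6-fold. With the authors' processed values, their dyes read from spike-ins, the log2 fold change was smaller, at 5.97. ENAH, which lengthens actin filaments at the cell's leading edge, came next, at 4.01 and 3.19 in CEM/WT and 10.64, 10.58 and 10.06 in CEM/BTZ7 (log2 fold change 6.83 ± 0.37, adjusted p = 0.0147). Its 4 probes did not agree on the size, which ran from 1.20 to 6.83, and their mean gave 3.88. TMSB15A, a thymosin that binds actin monomers, rose by 5.15 ± 0.19 (adjusted p = 0.0123), from 8.34 and 8.91 to 13.91, 13.88 and 13.71. Of 38 measured actin regulators and thymosins, 6 were called higher and none lower, with a list median of 0.04. Beside ENAH and TMSB15A these were the guanine nucleotide exchange factor gene ARHGEF26 (4.18), the secretory regulator SCRN1 (3.59), the actin-bundling AIF1L (3.10) and the calponin CNN3 (2.46). CNN3 was not called with all 11 samples (adjusted p = 0.0588) or with the processed values by column name (0.82, adjusted p = 0.431). Nor was it with their dyes read from spike-ins (0.93, adjusted p = 0.0624). The unconventional myosin MYO1D, outside that list, rose by 4.97.

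**Figure D2:**
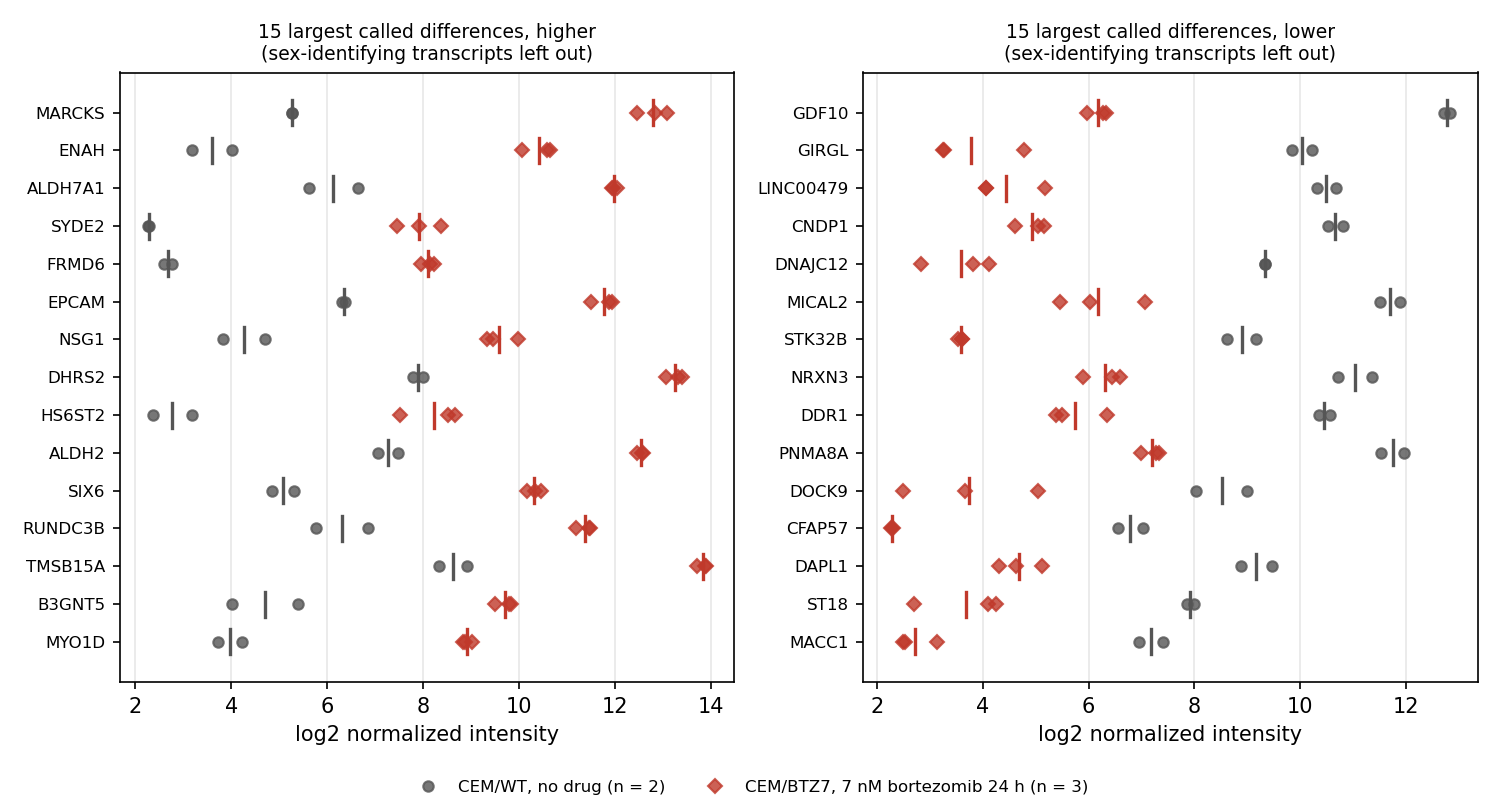
Log2 normalized intensity of the 15 genes with the largest called difference in each direction, transcripts that identify sex left out, in the 2 CEM/WT samples (grey circles) and the 3 CEM/BTZ7 samples (red diamonds), with short bars at the group means. Absence of overlap between groups was a condition for the choice of these genes. In SYDE2, FRMD6 (both CEM/WT samples) and CFAP57 (all CEM/BTZ7 samples) the low group was not above background.

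Enzymes that handle reactive carbonyls and xenobiotics were among the genes that rose furthest. ALDH2, the mitochondrial aldehyde dehydrogenase of ethanol metabolism, stood at 7.06 and 7.48 in CEM/WT and at 12.57, 12.59 and 12.47 in CEM/BTZ7, a log2 fold change of 5.23 ± 0.18 (adjusted p = 0.0116). ALDH7A1, which acts in lysine breakdown, rose by 5.78 ± 0.29, from 5.62 and 6.64 to 11.94, 12.05 and 11.96, although its 3 probes ranged from -0.33 to 5.78. These were the only 2 called of 16 aldehyde dehydrogenases, whose median was -0.04. Among 15 short-chain and aldo-keto reductases 3 rose: DHRS2, a short-chain dehydrogenase (7.78 and 8 against 13.32, 13.40 and 13.06; both its probes over 5), the carbonyl reductase CBR3 and AKR1C3, which reduces ketosteroids and prostaglandins (2.66 ± 0.23). CBR3 was not above background in either CEM/WT sample. Its bright-group mean was at least 26.9-fold over the lowest level measured there, with 7.39, 7.70 and 7.61 in CEM/BTZ7. Of 18 glutathione transferases, GSTM3 (2.91 ± 0.19) and GSTM1 (2.42 ± 0.22) were called higher and none lower, and the median was -0.08. GSTM genes are close copies of each other, and their probes may share signal. None of the 8 measured ABC efflux transporters was called, and 1 had an unadjusted limma p under 0.05.

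The remaining genes of the highest 15 belong to several families. EPCAM, an epithelial adhesion molecule, was at 6.31 and 6.38 in CEM/WT and at 11.88, 11.94 and 11.50 in CEM/BTZ7 (5.38 ± 0.19). SIX6, a homeobox factor of eye development, went from 4.85 and 5.30 to 10.34, 10.46 and 10.16. NSG1, a protein of neuronal endosomes, rose by 5.37 ± 0.37, and RUNDC3B, a RUN-domain protein, by 5.16 ± 0.29. FRMD6, a FERM-domain protein upstream of Hippo signalling, and SYDE2, a GTPase-activating protein, were not above background in either CEM/WT sample. Only bounds are given, at least 39.2-fold and at least 34.5-fold higher, and they hold for the reported normalization alone. The 2 probes of FRMD6 gave log2 fold changes of 1.53 and 5.42. In all, 88 genes were below background in both CEM/WT samples and above it in all 3 CEM/BTZ7 samples, and 25 genes showed the opposite pattern. The 2 counts are not alike, since the first asks for 2 samples below background and the second for 3. CEM/WT replicate 1 also had the fewest probes above background of the 5 samples (81.6%). Of the 213 higher genes, 21 had no CEM/WT sample above background.

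Glycan-building enzymes gave 3 of 28 called, all higher, with a list median of 0.24. B3GNT5, the first enzyme of the lacto-series glycosphingolipids, rose by 5.07 ± 0.44 (5.39 and 4.02 against 9.79, 9.83 and 9.51). B4GALNT4, which adds N-acetylgalactosamine, rose by 3.04 ± 0.22. HS6ST2, a heparan sulfate sulfotransferase, gave 5.31 ± 0.19 by its brighter probe on average, at 2.36 and 3.17 in CEM/WT and 8.51, 8.67 and 7.51 in CEM/BTZ7. Its other probe gave -0.72, and the direction is therefore that of 1 probe.

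The largest decrease among the named genes was in GDF10, a secreted member of the TGF-β superfamily also known as BMP3b. It was among the bright genes of the parental cells, at 12.72 and 12.83, and fell to 6.32, 6.27 and 5.96 in CEM/BTZ7. The log2 fold change was -6.63 ± 0.18 (adjusted p = 0.0116), and both probes fell (-6.63 and -6.58). It was the only called gene of 38 in BMP and TGF-β signalling, whose median was -0.19. CNDP1, a dipeptidase that cleaves carnosine, fell from 10.53 and 10.81 to 5.05, 5.15 and 4.61. DNAJC12, an HSP40 co-chaperone of aromatic amino acid hydroxylases, fell from 9.33 and 9.34 to 3.81, 2.82 and 4.11 (-5.68 ± 0.41). A pair of long noncoding RNAs, GIRGL (-6.38 ± 0.52) and LINC00479 (-5.98 ± 0.40), stood between GDF10 and CNDP1 in size.

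Several of the other lower genes act at the cell surface or on the cytoskeleton. NRXN3, a presynaptic adhesion molecule, fell by 4.74 (10.72 and 11.37 against 5.89, 6.44 and 6.59), and DDR1, a receptor tyrosine kinase for collagen, fell by 4.64 (10.35 and 10.56 against 5.39, 5.50 and 6.34). MICAL2, which oxidises actin, fell by 5.42 by 1 probe, while its second probe gave -0.28. DOCK9, an activator of Cdc42, had the widest CEM/BTZ7 spread of these, at 3.66, 2.49 and 5.04 against 8.99 and 8.04. CFAP57, a ciliary protein, was not above background in any CEM/BTZ7 sample and was at least 16.4-fold lower. The others of the 15 were the kinase STK32B (-5.28), the paraneoplastic antigen family member PNMA8A (-4.56, with probes from -4.56 to -0.16), DAPL1 (-4.47), the zinc finger factor ST18 (-4.38) and MACC1 (-4.38), a regulator of MET. SV2B, a synaptic vesicle glycoprotein, fell by 3.31, from 11.97 and 12.16 to 8.80, 8.78 and 8.74, with almost no spread within either group.

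The genes of the drug's target complex were higher as a set of values, though few passed the test. All 30 measured subunits of the 20S and 19S particles had a positive log2 fold change, from 0.07 to 1.59 with a median of 0.73, and in 26 of them all 3 CEM/BTZ7 samples lay above both CEM/WT samples, which held for 17.1% of all genes. Only 3 of the 30 were called higher and none lower. PSMA3, an α-ring subunit, was at 13.16 and 13.30 in CEM/WT and 14.91, 14.82 and 14.78 in CEM/BTZ7 (1.59 ± 0.17, adjusted p = 0.0382). PSMC2 and PSMC6, ATPases of the 19S base, rose by 1.52 ± 0.17 and 1.43 ± 0.17. With 75th percentile scaling none of the 3 passed (adjusted p = 0.0506, 0.0569 and 0.0639). Per sample, the median of the 30 subunits over the CEM/WT mean was 0.73, 0.83 and 0.77.

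PSMB5, which encodes the subunit that BTZ binds, did not pass the threshold. Its level was 14.27 and 14.11 in CEM/WT and 15.40, 15.40 and 15.78 in CEM/BTZ7, a log2 fold change of 1.38 ± 0.18 with an adjusted p of 0.0531. It passed in 8 of 18 alternatives, among them the fit of all 11 samples (adjusted p = 0.0116). With the processed values by column name, whose CEM/BTZ7 order differs from the labels, it did not pass (adjusted p = 0.0981). With their dyes read from spike-ins, a setting chosen after seeing the data, it passed (1.25, adjusted p = 0.03). The ATPase gene PSMC1 gave 1.32 ± 0.17 (adjusted p = 0.0533) and PSMD11, a scaffold subunit of the 19S lid, 1.55 ± 0.24 (adjusted p = 0.0773). Both passed with all 11 samples (adjusted p = 0.0129 and 0.035), but the 2 probes of PSMD11 ranged from 0.19 to 1.55. By ring and cap, medians were 0.69 for 7 α subunits, 0.73 for 7 constitutive β subunits, 1.32 for 5 ATPases and 0.66 for 11 non-ATPases. The immunoproteasome replaces the β catalytic subunits in interferon-exposed cells. None of 5 genes of it and its PA28 activator was called by limma (3 at an unadjusted p under 0.05, against 17.2% of all genes). PSMB9 gave 0.64, PSMB8 0.21 and PSMB10 -0.25, the activator subunit PSME1 0.91. Among 14 assembly factors and regulators the median was 0.20 and none was called (4 at an unadjusted p under 0.05).

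**Figure D3:**
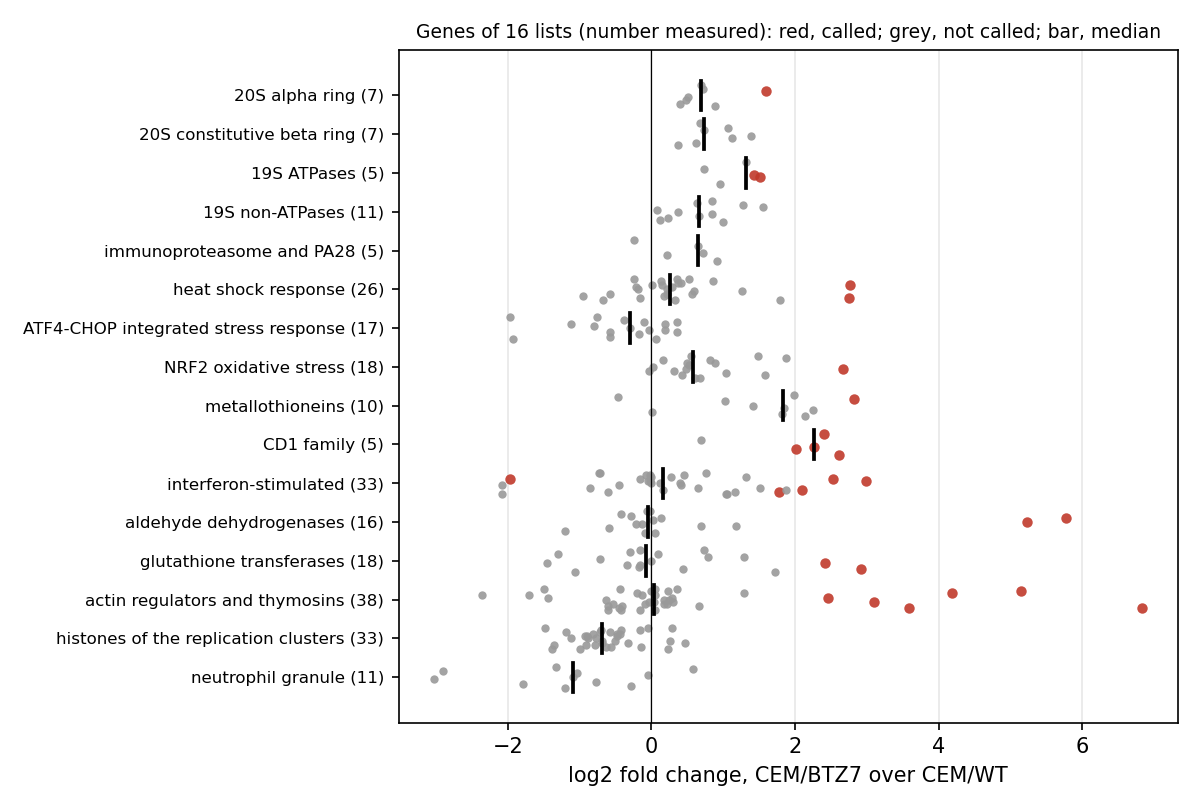
Log2 fold change of CEM/BTZ7 (n = 3) over CEM/WT (n = 2) for each measured gene of 16 lists, called genes in red, others in grey, and a black bar at the list median. All 30 proteasome subunits of the upper 4 rows lie right of 0, the CD1 family has the highest median (2.26) and the neutrophil granule genes the lowest (-1.09).

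Where the proteasome genes lie was examined because chromosome 14 stood out in the same comparison (described last). Of the 30 subunit genes, 5 map to chromosome 14, namely PSMA3, PSMA6, PSMB5, PSMC1 and PSMC6. Their median was 1.38, against 0.69 for the 25 elsewhere, all of which were also positive. Both PSMA3 and PSMC6 are on chromosome 14, so 2 of the 3 called subunits came from it. The part of chromosome 14 in these values was not tested.

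Metallothioneins, small cysteine-rich proteins that bind zinc and copper and are switched on by the metal-sensing factor MTF1, had a list median of 1.83. The 10 genes of the list include MTF1 itself. MT1M was the only one called: 10.53 and 10.59 in CEM/WT and 13.32, 13.21 and 13.54 in CEM/BTZ7 (2.82 ± 0.19, adjusted p = 0.0197). In 8 of the 10 all CEM/BTZ7 samples lay above both CEM/WT samples, which held for 17.1% of all genes. The wider spread of the others is seen in MT1X, at 13.59 and 14.33 against 15.36, 15.92 and 16.08 (1.82 ± 0.38, adjusted p = 0.127), and in MT2A, at 15.31 and 15.66 against 16.59, 16.76 and 17.26 (1.42 ± 0.29, adjusted p = 0.125). MT1B gave 1.98 and MT1H 1.84, neither called. MT3, the neuronal form, gave -0.46 and MTF1 0.01. Metallothionein genes are close copies of each other, and 1 probe may detect several.

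The promoters of 4 metallothionein genes are shown because the core of the metal response element can be seen in them repeatedly. They are the 250 bases before the gene start, 5′ to 3′ on the gene's strand, from RefSeq on GRCh38.p14, at chr16:56682220-56682469, chr16:56608334-56608583, chr16:56669564-56669813 and chr16:56651636-56651885, all on the plus strand. Capitals mark matches to TGCACNC or TGCGCNC on either strand, of which MT1X holds 4, MT2A 7, MT1H 8 and MT1B 3.
MT1X: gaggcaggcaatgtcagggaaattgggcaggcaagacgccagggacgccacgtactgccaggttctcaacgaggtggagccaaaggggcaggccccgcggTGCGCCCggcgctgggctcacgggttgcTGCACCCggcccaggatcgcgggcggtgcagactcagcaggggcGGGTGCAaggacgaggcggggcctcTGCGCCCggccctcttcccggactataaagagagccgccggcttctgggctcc
MT2A: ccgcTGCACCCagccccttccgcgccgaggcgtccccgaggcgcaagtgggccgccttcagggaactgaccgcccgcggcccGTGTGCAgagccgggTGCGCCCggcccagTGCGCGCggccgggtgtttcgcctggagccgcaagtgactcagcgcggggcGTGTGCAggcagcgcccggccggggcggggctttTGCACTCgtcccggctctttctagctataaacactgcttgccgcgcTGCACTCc
MT1H: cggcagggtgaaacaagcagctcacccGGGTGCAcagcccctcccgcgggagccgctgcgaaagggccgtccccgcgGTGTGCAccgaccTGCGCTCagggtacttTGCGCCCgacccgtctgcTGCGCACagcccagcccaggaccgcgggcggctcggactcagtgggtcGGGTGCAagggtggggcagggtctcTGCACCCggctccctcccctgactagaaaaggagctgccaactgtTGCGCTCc
MT1B: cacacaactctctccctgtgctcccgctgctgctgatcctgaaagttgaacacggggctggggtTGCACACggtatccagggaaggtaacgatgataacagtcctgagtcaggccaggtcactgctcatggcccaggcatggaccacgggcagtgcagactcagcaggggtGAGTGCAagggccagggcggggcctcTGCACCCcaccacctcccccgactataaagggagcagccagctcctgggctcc
RefSeq promoters were at hand for 5 of the 10 genes in the list, and 4 of the 5 held a match (the promoter of MTF1 did not). Of all 13518 tested genes with a promoter, 30.7% held one, as did 36% of 172 genes called higher and 24.8% of 105 called lower. A match describes the letters of the window and no binding.

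Heat shock genes were divided. Of 26 measured, 2 were called higher and none lower, with a median of 0.25, and per sample the list median over the CEM/WT mean was 0.25, 0.08 and 0.35. HSPA1A, the inducible HSP70, rose from 10.64 and 10.39 to 13.15, 12.68 and 13.73 (2.77 ± 0.26, adjusted p = 0.0304). Its close copy HSPA1B may share its probes. HSPA4L, an HSP110-family exchange factor, rose from 5.99 and 5.46 to 8.50, 8.32 and 8.46 (2.75 ± 0.21). DNAJB1, the HSP40 partner of HSP70, gave -0.16. The HSPA1A promoter, chr6:31815293-31815542 on the plus strand of GRCh38.p14 (RefSeq), is shown with its 1 heat shock element, GAANNTTC read on both strands, in capitals.
HSPA1A: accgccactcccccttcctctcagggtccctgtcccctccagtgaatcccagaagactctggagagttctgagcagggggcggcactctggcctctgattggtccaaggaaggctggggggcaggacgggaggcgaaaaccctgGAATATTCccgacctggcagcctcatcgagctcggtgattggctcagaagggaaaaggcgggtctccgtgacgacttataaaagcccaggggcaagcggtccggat
The same letters stand in 9 of 23 heat shock promoters at hand and in 4.51% of all 13518, in 4.65% of the promoters of genes called higher and in 1.9% of those called lower.

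Oxidative stress genes driven by NRF2 had a median of 0.58 over 18 genes. Of these, 17 were positive, against 46.9% of genes over all chromosomes, and 1 was called. That was HMOX1, which breaks down heme, at 6.85 and 6.94 in CEM/WT and 9.60, 9.35 and 9.71 in CEM/BTZ7 (2.67 ± 0.20, adjusted p = 0.0207). The integrated stress response of ATF4 and CHOP, which follows unfolded proteins in the endoplasmic reticulum, had none of 17 genes called by limma (4 at an unadjusted p under 0.05) and a median of -0.30, which was -0.01 without CEM/WT replicate 2. DDIT3, which encodes CHOP, was at 7.79 and 8.56 in CEM/WT and 7.63, 8.16 and 7.98 in CEM/BTZ7, so that the groups overlapped (-0.30 ± 0.31, adjusted p = 0.666). The death receptor gene TNFRSF10B, in the same list, gave -1.93 ± 0.63 and was not called. None of 22 endoplasmic reticulum chaperone and degradation genes was called (7 at an unadjusted p under 0.05), with a median of 0.36, which was 0 without CEM/WT replicate 2, and DERL3 at -1.39. CTH, which makes cysteine, was the only 1 of 17 amino acid supply genes called (1.49 ± 0.17). GABARAPL1, an ATG8-family protein of autophagosomes, rose by 3.57 ± 0.19, from 8.14 and 7.95 to 11.66, 11.37 and 11.71, and was the only 1 of 30 autophagy genes called.

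**Figure D4:**
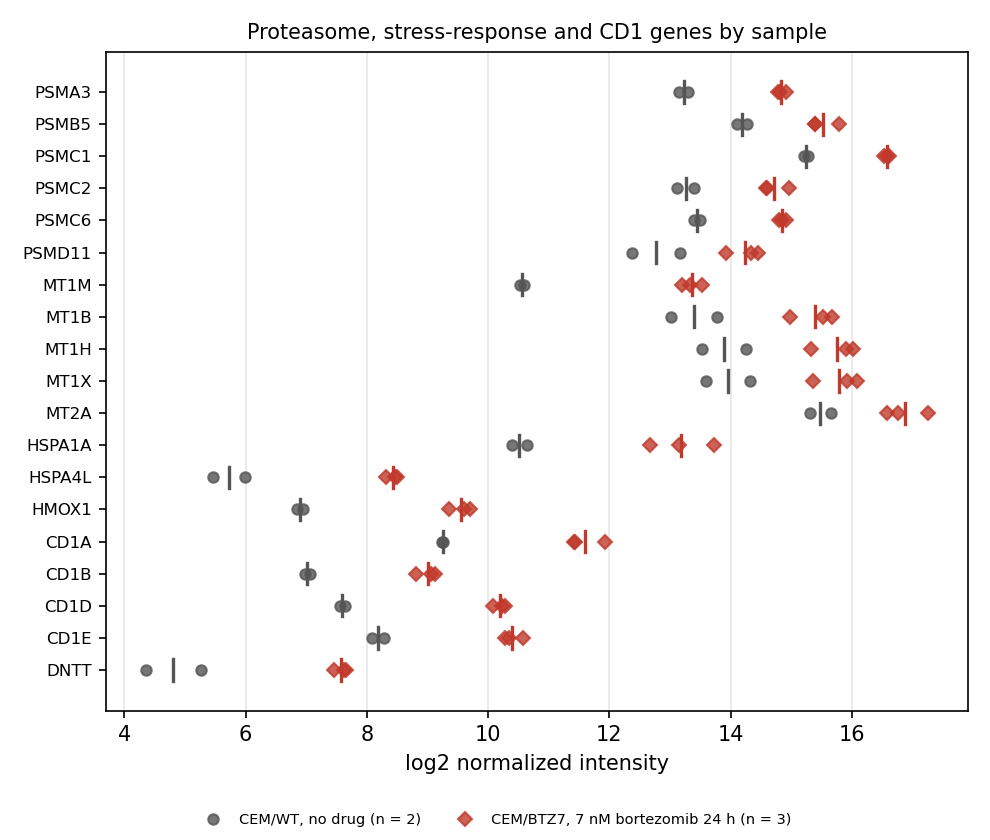
Log2 normalized intensity of proteasome, metallothionein, heat shock, oxidative stress and CD1 genes in the 2 CEM/WT samples (grey circles) and the 3 CEM/BTZ7 samples (red diamonds), with bars at the group means. The groups do not overlap in any gene shown, but the CEM/WT samples are further apart in MT1B, MT1H and MT1X than in MT1M. The genes were picked, some of them after their values were seen, and list members that did not rise, such as DNAJB1 and MT3, are not drawn. Of all genes, 17.1% had every CEM/BTZ7 value above both CEM/WT values.

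The clearest family among the lists was CD1, whose proteins present lipids to T cells and mark cortical thymocytes. Of its 5 genes 4 were called higher. CD1D was at 7.64 and 7.56 in CEM/WT and 10.09, 10.28 and 10.23 in CEM/BTZ7 (2.61 ± 0.18, adjusted p = 0.0197). CD1A went from 9.26 and 9.24 to 11.43, 11.43 and 11.94 (2.40 ± 0.21). CD1E (2.26 ± 0.17) and CD1B (2.01 ± 0.19) followed, and CD1C, at 0.70 ± 0.26, was not called. DNTT, the template-free polymerase that adds bases at V(D)J joints, rose from 5.27 and 4.35 to 7.62, 7.46 and 7.65 (2.84 ± 0.26, adjusted p = 0.0296). It was the only 1 of 11 genes of the pre-TCR and V(D)J recombination called. Of 34 T lineage and NOTCH regulators NOTCH3, a receptor of early thymocytes, was called alone (1.96 ± 0.21), and its 2 probes ranged from 0.22 to 1.96. It was not called with all 11 samples (adjusted p = 0.0974). None of 35 T cell surface and receptor signalling genes was called (12 at an unadjusted p under 0.05, against 17.2% of all genes). There the chemokine receptor gene CCR7 gave -2.15 ± 0.46, with 13.81 and 14.04 in CEM/WT and 11.53, 10.92 and 12.55 in CEM/BTZ7.

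Interferon-stimulated genes moved in both directions. Of 33 measured, 4 were called higher and 1 lower, with a median of 0.16. MX1, an antiviral GTPase, rose from 8.08 and 8.36 to 11.24, 11.63 and 10.94 (2.99 ± 0.21, adjusted p = 0.0199). HERC5 and USP18, which attach and remove the ubiquitin-like ISG15, rose by 2.52 ± 0.26 and 2.10 ± 0.19, and IFI44 by 1.78 ± 0.19. The call of HERC5 was lost with all 11 samples (adjusted p = 0.0843). IFITM1, a membrane protein that blocks viral entry, fell from 17.30 and 17.28 to 15.13, 15.35 and 15.41 (-1.97 ± 0.19, adjusted p = 0.0301). Its close copies IFITM3 (-2.08, adjusted p = 0.0519) and IFITM2 (-2.07, adjusted p = 0.0611) lay at the same size but were not called, although both passed with all 11 samples (adjusted p = 0.018 and 0.0297).

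Single genes of other pathways completed the called members. ANXA1, an anti-inflammatory annexin, rose by 2.97 ± 0.17, from 12.18 and 12.02 to 15.06, 14.95 and 15.13, while ANXA3 fell by 2.17 and the calcium-binding S100B by 2.82. S100B stood at 4.95 and 5.73 in CEM/WT and at 2.33, 3.26 and 2.29 in CEM/BTZ7. With the processed values by column name it was not called (-0.52, adjusted p = 0.53). Nor was it with their dyes read from spike-ins (-0.58, adjusted p = 0.141). DUSP6, the phosphatase that limits ERK, fell from 12.39 and 12.11 to 9.80, 9.81 and 10.22 (-2.25 ± 0.17), the only 1 of 27 immediate early genes called. BCL2L2, an anti-apoptotic BCL2 relative, fell from 9.49 and 9.53 to 6.54, 6.68 and 7.30 (-2.61 ± 0.25). TERT, the catalytic subunit of telomerase, gave 1.63 ± 0.24 and was not called (adjusted p = 0.0735; 0.0154 with all 11 samples). Over all 49 lists, 39 of 954 measured genes were called higher and 8 lower, beside 1.24% and 0.824% of all genes tested. The lists were chosen with earlier results of these data known, so their counts are descriptions.

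Both the histone and the neutrophil granule lists leaned down with no gene called by limma (7 and 5 genes at an unadjusted p under 0.05). Of 33 histone genes of the replication clusters 29 were negative, with a median of -0.69, and the linker histone gene H1-2 gave -1.48. Over all chromosomes 46.9% of genes were positive. The CEM/WT samples themselves stood 0.48 below and above their mean in this list, and the CEM/BTZ7 samples were at -0.75, -0.19 and -0.84. The 11 neutrophil granule genes had a median of -1.09. ELANE, neutrophil elastase, was at 11.20 and 12.16 in CEM/WT and at 5.73, 9.53 and 10.18 in CEM/BTZ7, so the size rested on 1 sample (-3.03 ± 1.49, adjusted p = 0.398). Lists of DNA replication (median 0.17), mitosis (-0.07, CENPE at -1.07) and MYC targets with ribosome biogenesis (0.05) had none called. Each had 5 genes at an unadjusted p under 0.05, of 29, 29 and 28 measured, beside 17.2% of all genes.

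The study's array CGH of this subline reported changes of chromosomes 5, 11, 14 and X, and expression was therefore set out by chromosome. On the long arms these were a small deletion on 5, a gain at the end of 11 and a duplication of nearly all of 14. For X, of which the study counted 3 copies, it reported that a whole chromosome was lost. The part of copy number in the values below was not tested. Chromosome 14 stood apart: its 530 measured genes had a median log2 fold change of 0.388 and 69.6% were positive, against -0.038 and 46.9% over all chromosomes. The medians of the others lay between -0.119 and 0.100. Per sample the chromosome 14 median over the CEM/WT mean was 0.316, 0.379 and 0.450, well above both CEM/WT samples. On it 13 genes were called higher and 6 lower, led by FRMD6, DHRS2 and SIX6 upward and NRXN3 downward, and BCL2L2 fell there too. In bins of about 40 genes along the chromosome, the median was 0.321 to 0.342 in the first 3, reached 0.661 from SPTSSA to LRR1, stayed between 0.381 and 0.582 to ATXN3, and went through 0.134 and 0.247 to -0.089 in the last bin.

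On chromosome X the median was -0.062, but the 38 genes nearest the p-arm end, up to HCCS, had a median of -0.744 with 23.7% positive. The other 15 bins of X lay between -0.189 and 0.263, the highest from TAF7L to ZCCHC18, which holds TMSB15A. The largest called differences on X among the named genes were those of HS6ST2, TMSB15A and ZDHHC15, a palmitoyltransferase that was not above background in CEM/WT. On chromosome 5 the last 3 bins had medians of -0.177, -0.279 and -0.158 with 17.5% to 30% positive, and the largest calls were ALDH7A1, the exchange factor TRIO (4.31 ± 0.52, not called with all 11 samples, adjusted p = 0.107) and the zinc finger gene ZNF879, which was not above background in CEM/WT. On chromosome 11 the first 2 bins were at -0.306 and -0.348 and the last at 0.209. Its largest calls were MICAL2, the endocannabinoid-making lipase DAGLA, not above background in CEM/WT, and FJX1 (3.59 ± 0.23). Bin medians are descriptions without a test.

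**Figure D5:**
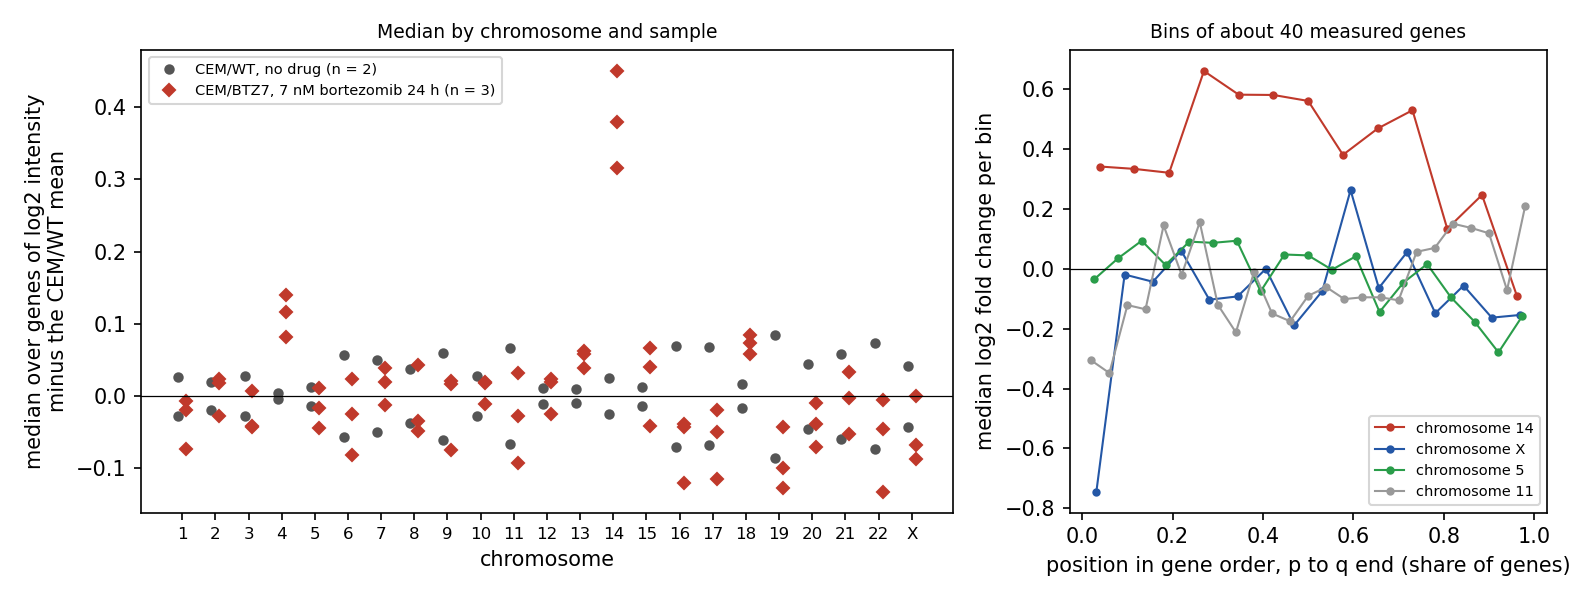
Left, median over the measured genes of each chromosome of the log2 intensity minus the CEM/WT mean, for each CEM/WT sample (grey circles) and CEM/BTZ7 sample (red diamonds); chromosome 14 lies at 0.316 to 0.450 in CEM/BTZ7. Right, median log2 fold change in consecutive bins of about 40 genes along chromosomes 14, X, 5 and 11, with the first bin of X at -0.744.

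Promoter composition differed between the directions of change. The ratio of observed to expected CpG in the 250 bases before the gene start had a median of 0.750 in 172 genes called higher, 0.548 in 105 called lower and 0.768 in all 13518. At or above a ratio of 0.6 lay 71.5%, 45.7% and 68.3% of them. These values describe the sequences and were not tested.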

How the data were processed

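Expression was measured on Agilent arrays in 3 CEM/BTZ7 and 2 CEM/WT samples of a series of 11. The authors deposited a table of 1 intensity per spot and sample (45015 spots), per the file headers raw data from Agilent Feature Extraction. The authors also deposited a table of processed log2 values, made with limma by background correction, loess and quantile normalization per the study's methods, which was used as an alternative only. Precision is limited by the number of arrays. Median intensity per sample was 132 to 188.5.

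Intensities of the 5 samples were quantile-normalized and log2-transformed with no offset (lowest intensity 3.94). Spots of a probe were averaged. Probes were kept when their signal in at least 2 samples passed the level below which 95% of the 153 negative-control spots lay (36573 of 41000), and the brightest kept probe stood for a gene. Probes were named from the platform annotation through Entrez identifier or accession, and 11756 without a single gene were left out. Group and dye were fitted with lmFit and eBayes (limma 3.58.1, R 4.3.3; 2 residual and 2.19 prior degrees of freedom) with Benjamini-Hochberg adjustment over 17111 genes, 2-sided. The dye term itself was called in 0 genes. For a group without a sample above background, "at least N-fold" is the bright mean against, per array, the higher of the lowest signal above background and the probe's own. Such a bound holds for the reported normalization and probe, and other settings gave smaller sizes. The fit was tested on simulated data.

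A spike-in pair whose ratio follows the dye (2.92 to 2.96 on log2 in Cy3, -2.97 to -2.63 in Cy5) matched the labelled dyes in the intensity table. In the processed table the CEM/BTZ7 columns stood at 2.91, -2.62 and -2.71, so their order there differs from the labels.

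Named genes were, in each direction, the 15 largest called differences without overlap between the groups. To these came up to 4 called members of each of 49 lists (or its largest difference), genes the study names, and the 3 largest calls on chromosomes 5, 11, 14 and X. Transcripts that identify sex were left out, as were 19 uncalled genes of the rule. MT1B, MT1H, MT1X, MT2A, PSMC1, IFI44, IFITM2, IFITM3, CD1C and CNN3 were added after their values were seen, and uncalled list members are mentioned in passing. The members and lists were chosen with earlier results of these data known. No set test was run.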

Additional observations from a re-analysis of the deposited data

How the results depend on the processing

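Among 18 alternatives, the genes called moved beyond 1.5 times the reported 354 with all 11 samples in 1 fit (600), with the authors' processed values by column name (543) or, chosen after seeing the data, with their dyes read from spike-ins (748), without a dye term (595), with dyes assigned through the processed table (224), with an offset of 50 (731) and with an intensity trend (692). Leaving out 1 sample gave 0 to 185 genes called. The share called higher stayed within 53.4% to 61.2% in these 7 settings. Scaling to the 75th percentile shifted the median of all genes to -0.115 and called 324. Of the genes called, 353 or 354 of 354 kept their direction in the 7 settings. As the groups overlapped in none of these genes, a change of direction was unlikely beforehand.

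Of 70 named called genes, 57 or more were called with the same direction in each alternative that kept all 5 samples, and 0 to 50 when 1 was left out. With all 5 samples kept, 17 of the 70 lost their call at least once. CNN3 did so in 10 settings, S100B in 7, NOTCH3 and TRIO in 4, and PSMC2 and PSMC6 in 3. B4GALNT4, CTH, DAGLA, DOCK9 and PSMA3 did so in 2, and HERC5, HS6ST2, HSPA1A, IFI44, MICAL2 and USP18 in 1. HS6ST2 was also uncalled in the setting, given below, that reversed its direction. A gene that a setting left unmeasured was not counted as lost. The smallest sizes were 5.97 for MARCKS, 3.88 for ENAH, 2.72 for ALDH7A1, -5.87 for GDF10 and -3.21 for DNAJC12. Among genes given with a fold bound they were 2.37 for FRMD6 and SYDE2, 2.03 for CBR3 and -1.53 for CFAP57. The direction reversed for HS6ST2 with probes above background in all 5 samples (-0.72), and, with 1 sample left out, for PSMB8 (-0.14 to 0.68, negative without CEM/WT replicate 1 or, at -0.13, CEM/BTZ7 replicate 3) and DDIT3 (-0.67 to 0.19, positive without CEM/WT replicate 2). The cause was not tested. List members called, 47 in the report, came to 88 (11 samples), 80 (processed values by name), 107 (dyes from spike-ins), 80 (no dye term), 71 (above background in all 5 samples), 108 (offset) and 111 (trend), and 0 to 34 with 1 sample left out. Of 49 list medians 29 kept their sign in all settings. That of histones ran from -0.96 to -0.23, of the ATF4 and CHOP list from -0.38 to -0.01, of endoplasmic reticulum chaperones from 0 to 0.37, of heat shock genes from 0.13 to 0.39, of metallothioneins from 1.32 to 2.48 and of 19S ATPases from 1.08 to 1.43. The chromosome 14 median was 0.308 with 75th percentile scaling, 0.264 and 0.267 with the processed values, 0.312 with an offset, and 0.272 to 0.497 with 1 sample left out.

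The labels number replicates in both groups without saying that the numbers pair samples. Deviations of same-numbered samples from their group mean correlated at 0.32 and 0.46 in 2 pairs. The 2 values are not independent, since the deviations of the 2 CEM/WT samples mirror each other. Differently numbered samples were not compared. With a replicate block in place of dye 516 genes were called (46.7% higher) and 74 list members, and with block and dye over 11 samples 1420 (49.9% higher) and 180.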
